A study of Mus musculus with 2 samples.

Results

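The 44 genes described here encode the machinery of DNA replication and genes whose transcripts peak around S phase, the part of the cell cycle in which DNA is copied. They were matched by gene symbol in the single deposited gene table, and all 44 were found, each in 1 of its 16103 gene rows. Both libraries come from cortical cells of ICR mouse embryos, an outbred stock, in the condition labelled warm. Plasmids were electroporated in utero at embryonic day 13, and GFP-positive cells were sorted at embryonic day 15. The Control library carried a control plasmid. The TRPM2-KD library carried a knockdown plasmid against Trpm2, a calcium-permeable channel that responds to warmth, and its data column names the construct TRPM2-sh1. A single construct was used, so an effect of the construct itself cannot be told apart from an effect of lower Trpm2. For the promoter of the plasmid, the temperature and the pooling of embryos, the sources used here state nothing.

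Before S phase, the origin recognition complex (ORC), Cdc6 and Cdt1 load a ring of Mcm2 to Mcm7 onto replication origins, a step called licensing, which geminin (Gmnn) blocks by binding Cdt1. At the start of S phase, Cdc45 and the GINS complex join the ring and turn it into the active helicase, and polymerases, the sliding clamp Pcna and nucleotide-making enzymes then sustain synthesis. Many of these genes are transcribed under E2F factors, which are released when the retinoblastoma protein is phosphorylated in late G1. In the embryonic cortex, radial glia and intermediate progenitors run this programme and neurons, which have left the cell cycle, do not.

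The Control library held 26209192 counted reads and the TRPM2-KD library 20791236. There was 1 library per group, so no difference has a replicate check and none was tested. Levels are in RPKM, which scales reads by gene length and library total. Ratios are TRPM2-KD over Control, and the range in parentheses after a ratio is its exact binomial (Clopper-Pearson) 95% interval, which covers counting error only and treats reads as independent molecules. Trpm2 had 241 reads (0.745 RPKM) in Control against 155 reads (0.604 RPKM), a ratio of 0.811 (0.658 to 0.996), so the targeted gene was only slightly lower in the library labelled TRPM2-KD. The labelled cell type was checked with marker lists. The 12 radial glia markers summed to 676.8 RPKM in Control and 727.9 RPKM in TRPM2-KD, with Sox2 at 64.4 and 65.3 RPKM and Pax6 at 5.57 RPKM in both. Neuronal markers were abundant in the sort too, summing over 10 genes to 1922 and 1741 RPKM, with Tubb3 at 742.8 and 679.8 RPKM. In such bulk samples, a different share of cells in S phase and a different amount of RNA per cell cannot be told apart.

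What these genes share upstream of their starts was looked at in the promoter sequences, because E2F factors are known to drive many of them. RefSeq promoter sequences (build GRCm38.p6) were matched for 34 of the 44 genes and searched over the 250 bases before the start, on both strands. The E2F motifs searched were TTTGGCGC, TTTCCCGC, TTTCGCGC and TTTGCCGC. An E2F motif was present for 10 of the 34 genes (29.4%), against 3.85% of the 9726 genes tested that had a promoter entry and 2.16% of all 27025 genes with one. CCAAT, the motif of the factor NF-Y, was present for 23 of 34 genes (67.6%), against 40.6% and 37.5%. TTTGAA, known as the cell cycle homology region of genes that peak later in the cycle, was present for 6 of 34 (17.6%), against 12.2% and 18.3%. Promoters of 4 genes with an E2F motif are shown to let the motifs be seen in place. They are the 4 with the highest ratios among those with the motif in a suitable stretch of the 180 bases before the start. Such a stretch had at least 40 bases, all outside every RefSeq gene. Capitals mark E2F motifs and CCAAT on either strand (the latter reads ATTGG on the other strand), and each stretch ends before the nearest annotated gene.
Cdca7 (chr2:72476039-72476186, plus strand): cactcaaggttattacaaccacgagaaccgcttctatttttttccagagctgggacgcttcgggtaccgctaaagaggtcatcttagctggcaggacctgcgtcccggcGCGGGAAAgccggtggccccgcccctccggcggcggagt
Mcm6 (chr1:128359706-128359885, minus strand): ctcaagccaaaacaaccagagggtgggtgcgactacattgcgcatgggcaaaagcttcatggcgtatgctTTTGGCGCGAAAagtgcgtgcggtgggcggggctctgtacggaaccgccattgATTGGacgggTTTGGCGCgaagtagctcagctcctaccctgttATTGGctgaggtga
Casp8ap2 (chr4:32615290-32615469, plus strand): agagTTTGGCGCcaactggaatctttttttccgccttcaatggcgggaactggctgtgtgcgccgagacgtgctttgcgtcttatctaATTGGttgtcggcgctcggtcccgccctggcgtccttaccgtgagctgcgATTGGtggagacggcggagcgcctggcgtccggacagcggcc
Mcm5 (chr8:75109329-75109467, plus strand): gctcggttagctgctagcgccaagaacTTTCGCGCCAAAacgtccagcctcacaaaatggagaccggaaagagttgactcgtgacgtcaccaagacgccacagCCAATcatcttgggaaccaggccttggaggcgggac
The Mcm6 promoter holds 3 E2F matches, of which a pair overlaps in a run of 12 capitals, and the Mcm5 promoter holds an overlapping pair that reads on both strands. In Cdca7 and Casp8ap2 there is 1 match each. The other 6 genes with a match are Cdc6, Dtl, Pola1, Uhrf1, Hells and Mcm7. A match describes these letters only and is not a measured binding site.

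**Figure D1:**
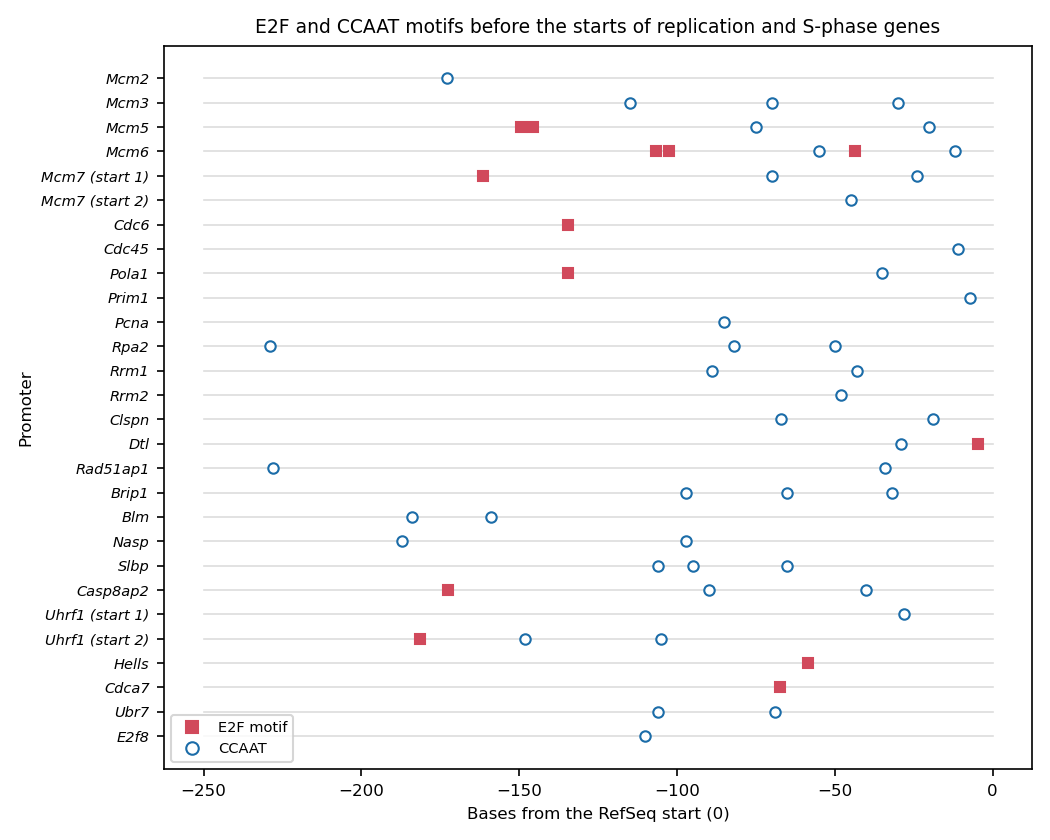
Position of each E2F motif (filled squares) and each CCAAT motif (open circles) in the 250 bases before the RefSeq start of the genes that hold one, with bases from the start on the x axis and 1 line per promoter. CCAAT appears in more of the promoters (23 of 34 genes) than the E2F motifs (10 of 34 genes).

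As a group, the replication and S-phase genes were slightly more abundant in TRPM2-KD, by a small margin and not uniformly. Of the 44 genes, 43 had a mean of at least 1 RPKM over both libraries, and Brip1, at a mean of 0.895 RPKM, did not. Counts out of 43 use this filter, while sums and counts out of 44 include Brip1. At least 25% higher in TRPM2-KD were 7 of the 43 genes (16.3%), a share close to the 13.9% of all 13988 genes tested. None of the 43 was at least 20% lower, the same fold in the other direction, against 12.8% of all genes tested. The 7 were Gins1, Cdc6, Tyms, Dtl, Ung, Cdc45 and Atad2. Atad2 lay just inside that threshold at a ratio of 1.26, Fen1 just outside it at 1.20, and Pold3 came nearest to the lower threshold at 0.809. Past 1.5-fold there were 2 genes, Gins1 and Cdc6, beside 6.23% of all genes tested above that fold and 5.03% below it.

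Smaller differences leaned the same way. The ratio was above 1 for 33 of the 43 genes (76.7%), against 49.3% of all genes tested. Counting intervals lay above 1 for 19 genes (44.2%, against 28.0% of all genes tested) and below 1 for 5 genes (11.6%, against 28.4%). The 5 were Gins2, Mcm4, Pold3, Rfc2 and Rpa2. The median log2 ratio was 0.10 (quartiles 0.02 and 0.24), where that of all genes tested was -0.004 (quartiles -0.17 and 0.17). Together the 44 genes took 0.207% of all Control reads and 0.219% of all TRPM2-KD reads, or 54332 and 45448 reads, a ratio of 1.05 (1.04 to 1.07). Of the 44 genes, the intervals of 13 lay above the summed ratio, those of 7 below it, and those of 24 held it; the ordinary spread between libraries, which 1 library per group cannot show, is not in these intervals. The median gene of the 43 had 1600 reads over both libraries and the median of all genes tested had 1450. The number of reads sets how many intervals exclude 1, and its spread was not compared between the 43 genes and all genes tested.

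**Figure D2:**
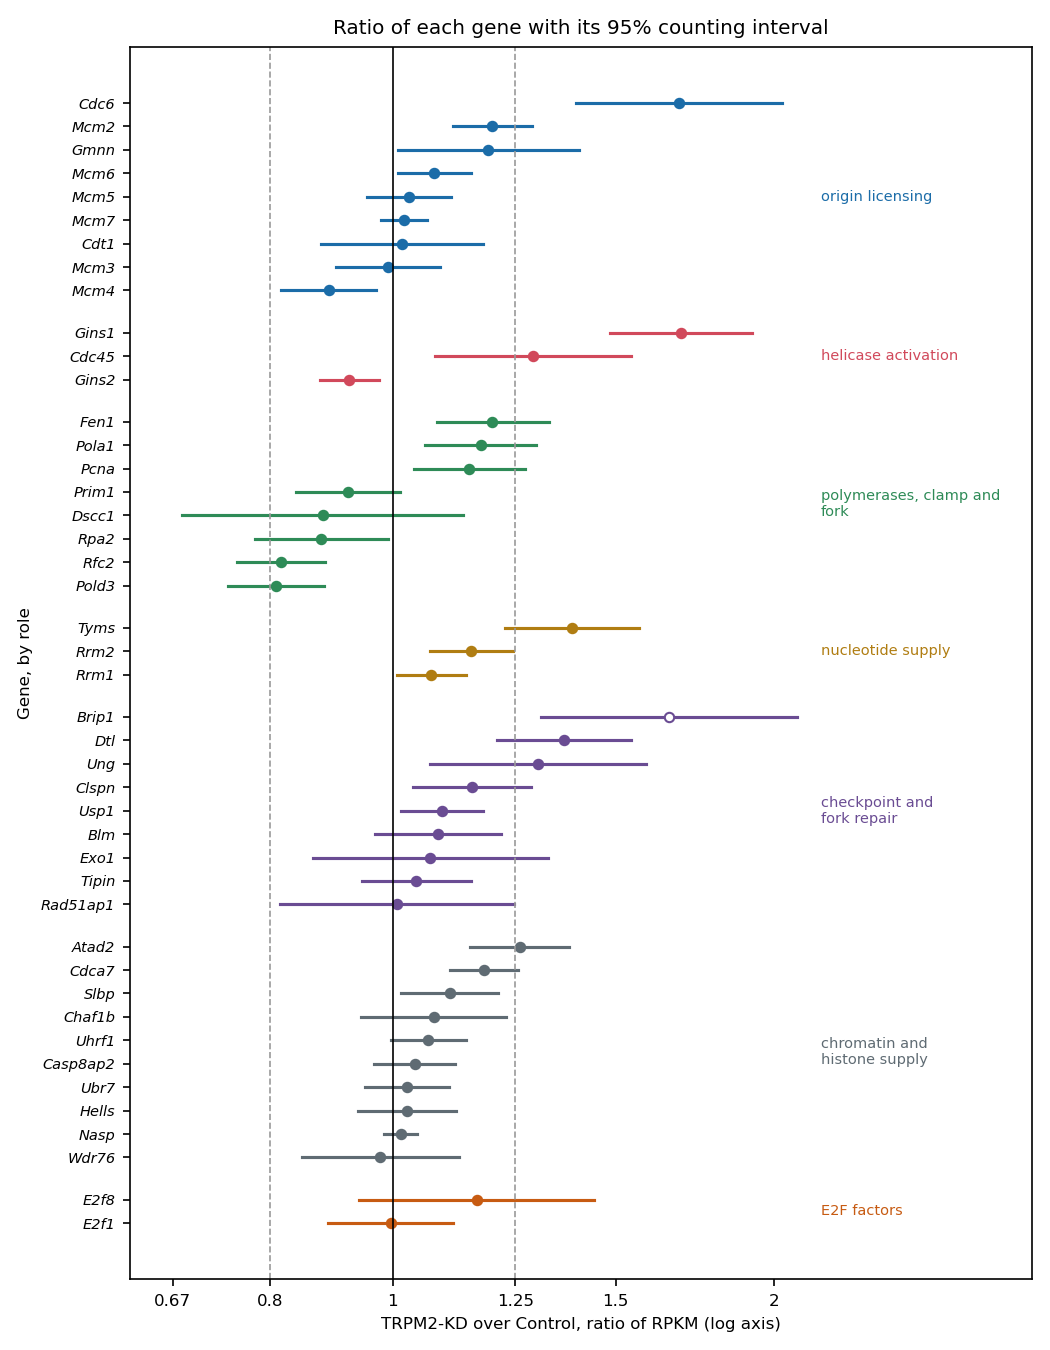
Ratio of RPKM in TRPM2-KD over Control for each of the 44 genes, on a log axis and ordered by role. Points are ratios, bars the 95% counting intervals, dashed lines the thresholds of 25% higher and 20% lower, and the open point is Brip1, under 1 RPKM on average. Gins1 and Cdc6 stand farthest to the right at 1.69 and 1.68, and no point lies left of 0.8.

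Levels kept nearly the same order in both libraries. Across the 44 genes, which share both libraries, the Spearman correlation of RPKM between them was 0.988 (n = 44 genes). In Control the levels ran from 0.675 RPKM (Brip1) to 47.4 RPKM (Nasp), with a median of 8.97 RPKM, and in TRPM2-KD from 1.11 to 48.1 RPKM with a median of 9.46 RPKM. The median level of all genes tested was 8.70 and 8.73 RPKM, so as a set these genes were of ordinary abundance. Nasp, Mcm7 and Rfc2 held the top 3 places in both libraries. Cdca7 moved from place 7 to 4 and Gins1 from place 20 to 12, while Gins2 moved from place 4 to 7.

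**Figure D3:**
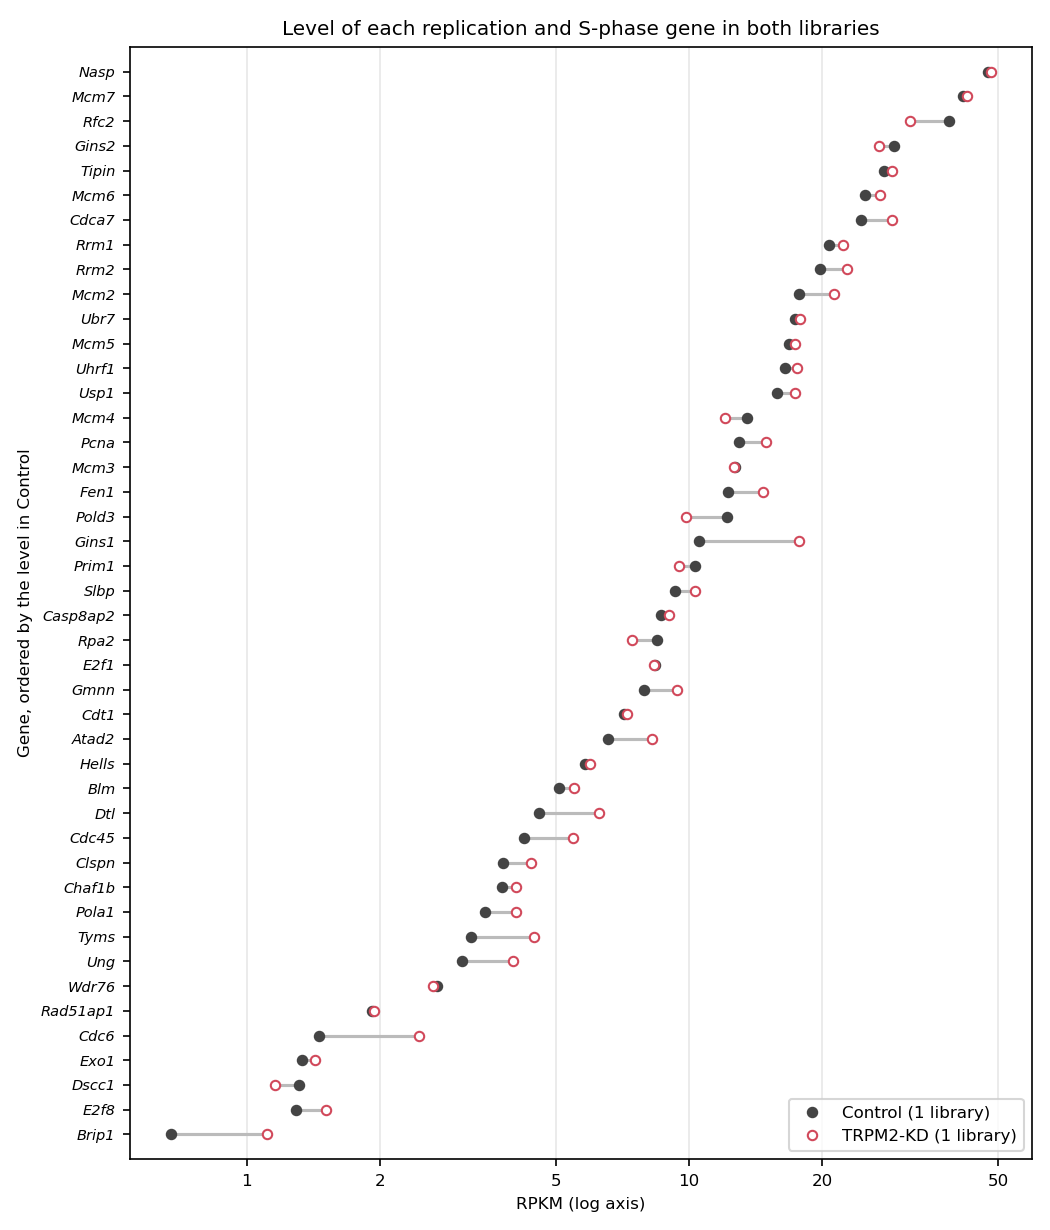
Level of each of the 44 genes in RPKM on a log axis, with Control as filled points and TRPM2-KD as open points, ordered by the Control level. Grey lines join the libraries. The longest lines are those of Cdc6, Gins1 and Brip1, and the points of Nasp and Mcm7, the most abundant genes, nearly coincide.

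Among the licensing genes, the ring subunits stayed close to 1 while the loading factor Cdc6 stood out. Cdc6 had 200 Control and 267 TRPM2-KD reads, or 1.46 and 2.45 RPKM, a ratio of 1.68 (1.396 to 2.03). Cdt1, its loading partner, had 409 and 330 reads, or 7.12 and 7.24 RPKM, and a ratio of 1.02 (0.877 to 1.18). Gmnn, the inhibitor of Cdt1, had 304 and 287 reads, or 7.91 and 9.41 RPKM, at 1.19 (1.01 to 1.403). So of the regulators of loading, Cdc6 was higher beyond counting error and Cdt1 was not detectably different at this depth. The interval of Gmnn lay above 1 but started close to it.

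The 6 genes of the ring, Mcm2 to Mcm7, encode subunits that assemble in equal numbers. Mcm2 was the highest by ratio, with 1566 Control and 1489 TRPM2-KD reads (17.7 and 21.2 RPKM) and a ratio of 1.20 (1.12 to 1.29). Mcm6 had 1902 and 1627 reads (24.99 and 26.9 RPKM), at 1.08 (1.01 to 1.15). Mcm4 was the lowest, with 1274 and 900 reads (13.5 and 12.05 RPKM), at 0.891 (0.817 to 0.971). The intervals of Mcm2 and Mcm4, the extremes of the 6, do not overlap, so these 2 differed in direction by more than counting error. Of all genes tested, 28.0% had intervals above 1 and 28.4% below. How often other groups of 6 genes hold such a pair was not tested. The other 3 had intervals that hold 1. Mcm5 had 1510 and 1234 reads (16.8 and 17.3 RPKM), Mcm7 4839 and 3917 reads (41.7 and 42.5 RPKM), and Mcm3 999 and 786 reads (12.7 and 12.6 RPKM). Summed over the ring, reads gave a ratio of 1.04 (1.01 to 1.07). Per length, the most abundant subunit, Mcm7, was 3.27 times the least abundant in Control and 3.53 times in TRPM2-KD. Mcm7 exons overlap those of Ap4m1, Cops6 and 2 microRNA genes in the reference annotation, and strand was not stated for the counting, so its level is uncertain.

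The factors that activate the helicase held the largest ratio of the 44 genes, next to a subunit of the same complex that went the other way. Gins1 (Psf1) had 418 Control and 560 TRPM2-KD reads, or 10.5 and 17.7 RPKM, a ratio of 1.69 (1.48 to 1.92). Cdc45, which joins GINS on the ring, had 250 and 256 reads, or 4.23 and 5.46 RPKM, at 1.29 (1.08 to 1.54). Gins2 (Psf2) had 3125 and 2291 reads, or 29.1 and 26.9 RPKM, at 0.924 (0.875 to 0.976). Gins2 exons overlap Gse1 and those of Cdc45 overlap Ufd1 on the other strand, so both are uncertain, whereas no overlap was found for Gins1. The remaining subunits, from the wider pathway list, were also higher: Gins3 had 130 and 170 reads at a ratio of 1.65 (1.304 to 2.09), and Gins4, named after its value was seen, had 588 and 604 reads at 1.29 (1.15 to 1.45). Thus 3 of the 4 GINS genes had intervals above 1 and 1 had an interval below 1. Over all genes tested the shares were 28.0% and 28.4%, and 4 genes are too few to compare with them.

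Genes of the replication fork itself lay on both sides of 1, with 3 of 8 above it and 5 below. The median log2 ratio was -0.15 and the summed reads gave a ratio of 0.958 (0.924 to 0.992). Intervals lay above 1 for 3 genes and below 1 for 3, or 37.5% each way, against 28.0% and 28.4% of all genes tested. Pcna, the sliding clamp, had 816 and 744 reads, or 12.96 and 14.9 RPKM, at 1.15 (1.04 to 1.27). Pcna has pseudogenes (Pcna-ps1 and Pcna-ps2) that can share reads. Fen1, the flap nuclease that trims Okazaki fragments, had 780 and 742 reads at 1.20 (1.08 to 1.33), and its exons overlap Tmem258. Pola1, the catalytic subunit of the polymerase that starts each strand, had 799 and 744 reads at 1.17 (1.06 to 1.299). These 3 genes were higher by a similar, small factor. On the other side, Pold3, an accessory subunit of polymerase delta, had 1323 Control and 849 TRPM2-KD reads, or 12.2 and 9.87 RPKM, at 0.809 (0.741 to 0.882). Rfc2, a subunit of the clamp loader, had 1540 and 997 reads, or 38.7 and 31.5 RPKM, at 0.816 (0.753 to 0.884). Rpa2, part of the complex that coats single-stranded DNA, had 663 and 462 reads at 0.878 (0.778 to 0.991). Prim1, the primase, at 0.922 (0.839 to 1.01), and Dscc1, of the alternative clamp loader, at 0.882 (0.682 to 1.14), were below 1 with intervals that hold it. Exons of Rfc2 overlap Lat2 and those of Dscc1 overlap a gene model on the other strand, so their reads are uncertain in the same way.

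Subunits outside the 44 genes were added for whole complexes, after the values were seen. In the clamp loader, Rfc3 at 0.772 (0.695 to 0.857) and Rfc5 at 0.810 (0.737 to 0.890) were lower like Rfc2. Rfc1, its large subunit, was higher at 1.16, with an interval that starts at 1.07, and Rfc4, with 235 and 354 reads, was higher at 1.90 (1.61 to 2.25). In polymerase delta all 4 genes were below 1, with Pold4 at 0.692 (0.564 to 0.846), and Pold1 and Pold2 at 0.958 and 0.971 with intervals that hold 1. In RPA, Rpa1 was at 1.14 (1.06 to 1.22) and Rpa3 at 1.09 (0.985 to 1.20). In ORC, which marks origins, Orc6 was lower at 0.675 (0.605 to 0.753), Orc2 to Orc5 ranged from 0.936 to 0.952, and Orc1, under the level filter at 56 and 90 reads, was at 2.03 (1.43 to 2.88). Counting Orc1, each of GINS, RFC, ORC, RPA and the Mcm2 to Mcm7 ring contained genes with intervals on both sides of 1. Of all genes tested, 28.0% had intervals above 1 and 28.4% below. How often other groups of so few genes hold both was not tested, so the mixture is not shown to be particular to these complexes. In polymerase alpha-primase, Pola2 and Prim2 were at 0.922 and 1.00, with intervals that hold 1.

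**Figure D4:**
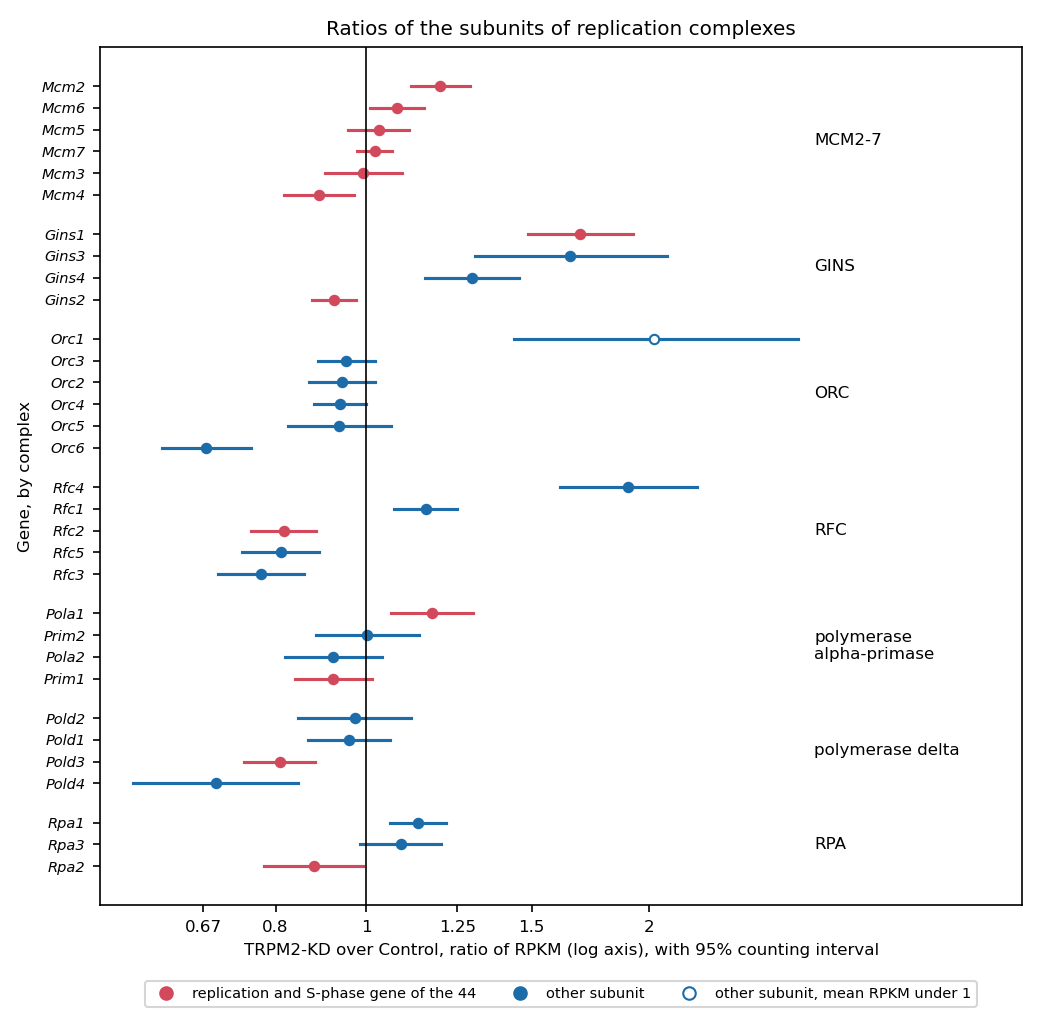
Ratio of RPKM in TRPM2-KD over Control on a log axis, with 95% counting intervals, for the subunits of 7 replication complexes. Red marks genes of the 44, blue other subunits, and the open point is Orc1, under 1 RPKM on average. Within GINS and RFC the ratios spread from 0.924 to 1.69 and from 0.772 to 1.90.

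Among the 44 genes, 3 encode enzymes that supply deoxynucleotides, and all 3 were higher. Tyms, which makes thymidylate, had 515 Control and 566 TRPM2-KD reads, or 3.22 and 4.47 RPKM, at 1.39 (1.23 to 1.56). Rrm1, the large subunit of ribonucleotide reductase, had 2174 and 1851 reads, or 20.7 and 22.2 RPKM, at 1.07 (1.01 to 1.14). Rrm2, its small subunit, whose level follows S phase, had 1436 and 1315 reads, or 19.7 and 22.8 RPKM, at 1.15 (1.07 to 1.245). All 3 intervals lay above 1, against 28.0% of those of all genes tested, and 3 genes are too few to compare with that share. The summed reads of the 3 genes gave a ratio of 1.14 (1.09 to 1.19). Tyms has a pseudogene, Tyms-ps, that can share reads. Outside the 44 genes, enzymes of deoxynucleotide metabolism, named after their values were seen, lay on both sides of 1. Below it, Dck was at 0.897 (0.839 to 0.959) and Dctpp1, which breaks down deoxynucleotides, at 0.894 (0.7996 to 0.999). Tk1 at 0.908 (0.784 to 1.05) and Dtymk at 0.998 (0.929 to 1.07) had intervals that hold 1. Above it were Samhd1 at 1.34 (1.23 to 1.45), Dut at 1.19 (1.08 to 1.31) and Rrm2b at 1.04 (0.894 to 1.21). Of the 23 other nucleotide synthesis enzymes, 12 were above 1 (52.2%, against 49.3% of all genes tested).

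All 8 checkpoint and fork repair genes that passed the level filter were above 1, with a median log2 ratio of 0.12. Of all genes tested, 49.3% were above 1. Intervals lay above 1 for 4 of the 8 (50%), against 28.0% of all genes tested, and these differences were not tested. Dtl, which directs the ubiquitin ligase that destroys Cdt1 in S phase, had 506 and 548 reads, or 4.59 and 6.26 RPKM, at 1.37 (1.21 to 1.54). Ung, which removes uracil from DNA, had 207 and 214 reads, or 3.07 and 4.01 RPKM, at 1.303 (1.07 to 1.58). The checkpoint mediator Clspn, at 1.16 (1.04 to 1.29), and the deubiquitinase Usp1, at 1.09 (1.02 to 1.18), also had intervals above 1. The other 4, the fork protection factor Tipin, the recombination cofactor Rad51ap1, the helicase Blm and the nuclease Exo1, ranged from 1.01 to 1.09 and their intervals hold 1. Brip1, a helicase of interstrand crosslink repair that fell under the level filter, had 132 and 173 reads, or 0.675 and 1.11 RPKM, at 1.65 (1.31 to 2.09). It is not among the 8 genes counted here.

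Chromatin and histone supply genes were near 1, 9 of 10 of them slightly above it (90%, against 49.3% of all genes tested). Atad2, a bromodomain ATPase of newly replicated chromatin, had 977 reads in each library, or 6.55 and 8.26 RPKM, so its ratio of 1.26 (1.15 to 1.38) comes from the smaller total of TRPM2-KD. Cdca7, a partner of the remodeller Hells, had 2050 and 1920 reads, or 24.4 and 28.8 RPKM, at 1.18 (1.11 to 1.26). Hells itself was at 1.03 (0.939 to 1.12). Uhrf1, which guides DNA methylation to newly copied DNA, had 1839 and 1557 reads, or 16.5 and 17.6 RPKM, at 1.07 (0.997 to 1.14). Slbp, which binds the stem-loop of histone mRNAs, was at 1.11 (1.02 to 1.21). Apart from Atad2, Cdca7 and Slbp, no gene of this group had an interval that excluded 1. Intervals thus lay above 1 for 30% of the group, close to the 28.0% of all genes tested. Nasp, a histone chaperone that alone gave 17.2% of the 44 genes' reads in Control, had 9351 and 7530 reads at 1.01 (0.985 to 1.05), and without it the summed ratio of the rest was 1.06. Nasp has a pseudogene, Nasp-ps1, that can share reads. The others, the chromatin assembly subunit Chaf1b, the histone expression regulator Casp8ap2, the histone-binding protein Ubr7 and Wdr76, ranged from 0.978 to 1.08. Slbp and Ubr7 each overlap a gene model on the other strand.

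The E2F factors in the set did not differ detectably at this depth. E2f1, an activator that opens the programme, had 692 Control and 547 TRPM2-KD reads, or 8.36 and 8.33 RPKM, at 0.996 (0.889 to 1.12). E2f8, a repressor that closes it, had 185 and 171 reads, or 1.295 and 1.51 RPKM, at 1.17 (0.941 to 1.44), and its exons overlap a gene model on the other strand. The median log2 ratio was 0.10 for the 10 genes with an E2F motif and 0.11 for the 23 genes with a promoter entry but no motif, counting genes past the level filter. Ratios ran from 1.02 to 1.68 in the genes with a motif and from 0.809 to 1.39 in those without, so no gene with a motif was below 1. The difference between these groups was not tested.

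Other genes of the pathway were described from lists fixed for this purpose. Of 43 further replication machinery genes past the filter, 7 were at least 25% higher (16.3%, against 13.9% of all genes tested) and 4 at least 20% lower (9.30%, against 12.8%). The count of higher genes was thus that of the 43 S-phase genes, also 7. The median log2 ratio was -0.05, with 19 genes above 1, beside 0.10 and 33 genes for the 43; the difference between the lists was not tested. Its ratios farthest from 1 were those of Rfc4, Gins3, Orc6 and Chtf18, the last a subunit of the alternative clamp loader at 1.499 (1.28 to 1.76). Of 23 other nucleotide synthesis enzymes, 2 were higher (8.70%) and 1 was lower (4.35%), with a median of 0.05. The higher were Shmt1 at 1.402 and Samhd1, which degrades deoxynucleotides, at 1.34, and the lower was Umps, of pyrimidine synthesis, at 0.786. Dut, which keeps uracil out of DNA, was at 1.19 (1.08 to 1.31). Of 9 other chromatin factors of replication, 2 were higher (22.2%) and 1 lower (11.1%), with a median of 0.13. The higher were Mms22l at 1.54 and Tonsl at 1.254, partners in fork repair. The lower was the histone chaperone gene Asf1b at 0.780, with an interval that holds 1. The paralog Asf1a was at 1.17.

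The E2F and RB network outside the 44 genes lay at a median log2 ratio of 0.10 across its 23 genes. At least 25% higher were 4 of them (17.4%), a share close to the 13.9% of all genes tested. At least 20% lower was 1 (4.35%, against 12.8% of all genes tested). Ccne1, the cyclin that drives entry into S phase, had 180 and 203 reads at 1.42 (1.16 to 1.75). The activator E2f3 was at 1.296 (1.19 to 1.42) and the pocket protein gene Rbl2, a repressor of E2F targets, at 1.32 (1.18 to 1.47). The fourth, named after its value was seen, was a further pocket protein gene, Rbl1, at 1.28 (1.15 to 1.44). Fbxo5 (Emi1), an inhibitor of the anaphase-promoting complex, had 527 and 270 reads at 0.646 (0.556 to 0.749). The higher genes thus included activators and repressors of the programme. For the next phase of the cycle, 52 G2/M genes had a median of 0.07, with 9 at least 25% higher (17.3%) and 5 at least 20% lower (9.6%). Their ratios farthest from 1 were those of Birc5 (0.625), Cenpa (0.642), Anln (1.505) and Gas2l3 (1.38). Counting intervals lay above 1 for 23 of the 52 G2/M genes (44.2%, against 28.0% of all genes tested) and below 1 for 11 (21.15%, against 28.4%). The share above 1 was thus the same as in the 43 replication and S-phase genes, also 44.2%. Summed reads gave a ratio of 1.06 (1.05 to 1.07) for G2/M and 1.08 (1.06 to 1.10) for the E2F and RB network. That of the 44 genes was 1.05 (1.04 to 1.07), so a lean of this size was not particular to them.

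**Figure D5:**
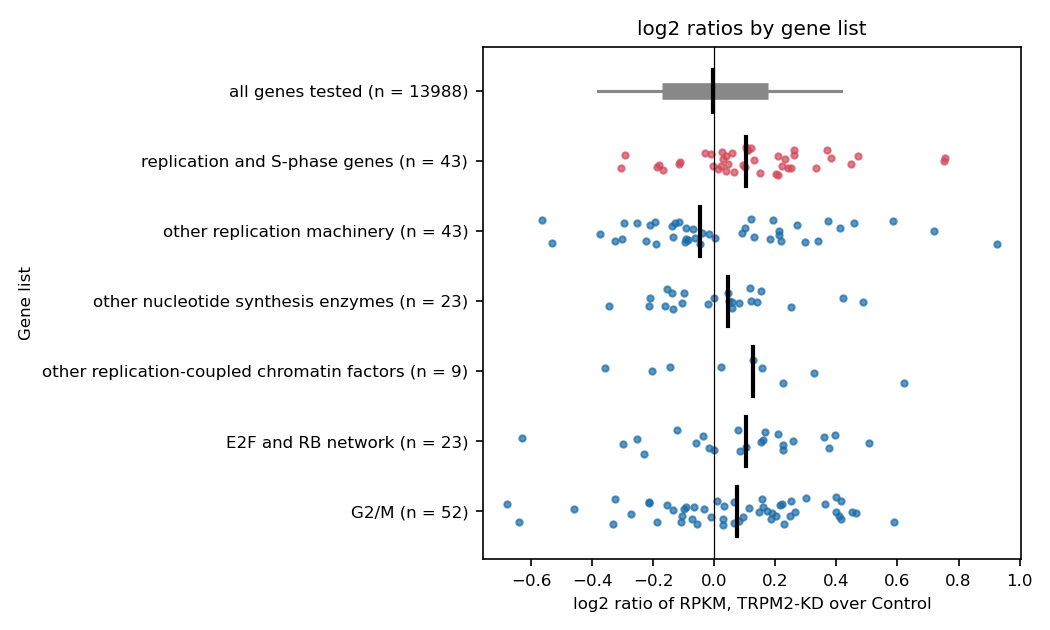
log2 ratios of RPKM, TRPM2-KD over Control, for the genes of each list with a mean of at least 1 RPKM. Points are genes (red for the replication and S-phase genes), black bars medians, and for all genes tested the thick and thin grey bars span the middle 50% and the middle 80%. The median of the replication and S-phase genes is 0.10 and that of the other replication machinery is -0.05.

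Markers of several cell types also differed between the libraries. The 12 microglia and macrophage markers summed to 151.2 RPKM in Control and 238.6 RPKM in TRPM2-KD, and 10 of the 11 past the filter were at least 25% higher, with ratios from 1.38 (C1qa) to 2.73 (P2ry12); the other was Fcer1g at 1.23. Neuronal markers were slightly lower, at a summed read ratio of 0.931 (0.925 to 0.938), with 7 of 10 intervals below 1. Radial glia markers did not move together. Their summed read ratio was 1.10 (1.09 to 1.11), with Slc1a3 at 1.56, Ptprz1 at 1.26 and Fabp7 at 1.17, but Emx2 was at 0.802 and Vim at 0.910, and intervals lay above 1 for 4 of 12, below 1 for 2 and held 1 for 6. Summed levels of the 6 intermediate progenitor markers were 235.9 and 230.0 RPKM, those of the 6 interneuron lineage markers 183.7 and 170.2, and those of the 5 mural cell markers 46.6 and 48.6. The 8 endothelial markers summed to 125.8 and 107.4 RPKM, the 6 meningeal fibroblast markers to 64.8 and 48.3, the 4 choroid plexus markers to 416.3 and 291.4, and the 7 erythroid markers to 70.0 and 86.2. Most of the erythroid difference was Hbb-bt, with 3 Control and 166 TRPM2-KD reads, a ratio of 69.8 (23.5 to 341.7), while Hbb-bs, a near-identical gene that can share its reads, had 1247 and 1097. Microglia, endothelial and red blood cells do not arise from cortical progenitors, and their transcripts were present in both sorted libraries. No marker of these lists that was found in the table was at 0 reads in either library, and 1 of the 5 choroid plexus markers listed was not analysed here. The part of these markers in the ratios of the replication and S-phase genes was not tested.

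Gene length and base composition were set beside the ratio. Across genes, which share both libraries, the Spearman correlation of the log2 ratio with gene length was 0.149 over all genes tested and -0.02 over the 43 genes. With transcript GC content it was -0.19 over 13839 genes and -0.03 over the 43 genes, too few to tell such weak correlations apart. Set against the median of genes in the same decile of gene length, their median log2 ratio was 0.11, and in the same decile of GC content 0.08.

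The authors' deposited table gives a comparison of both libraries for each gene. With the series' cut-offs of p under 0.05 and a log2 fold change beyond 1 in either direction, none of the 44 genes passed in the authors' deposited table, against 3.84% of all 16103 genes. Their log2 fold changes in the authors' deposited table ran from -0.31 (Pold3) to 0.76 (Gins1), with 34 of 44 above 0. The lowest p-value of the 44 genes in the authors' deposited table was 0.256, for Gins1. How that comparison set its spread with 1 library per group is likewise not stated.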

How the data were processed

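The authors deposited 1 gene table. Per the file headers it holds a whole-number read count and an RPKM value for each library, and the authors' log2 fold change, p-value and adjusted p-value. The tools listed, per the submitters' processing notes and without roles, are HTSeq 0.6.0, TopHat2 2.0.12 and Bowtie2 2.2.3, with build mm9. For the annotation, the strand setting and multiply matching reads, the choice made is not given in the sources used here. RPKM scale factors differed between libraries by 1.26 for all genes with more than 50 reads in each, the ratio of the totals, so the ratio of RPKM is that of counts scaled to totals.

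Ratios and intervals were computed for all genes with SciPy 1.17.1. The code was run on simulated reads with counting error only and 200 genes changed by more than the thresholds used here. Such a run checks the computation and cannot show the spread between libraries or how well small differences are found. The filter was a mean of 1 RPKM, and 13988 genes passed. Scaling was repeated with edgeR 4.0.16 and DESeq2 1.42.0. Gene length was taken from counts and RPKM, and GC content, overlaps and pseudogenes from GENCODE M21, a later build, by name only. Of the 44 genes, 12 have a pseudogene by symbol or an exon overlap. Promoters are RefSeq's. All 44 genes are accounted for by role. Reads were given for a fixed set of core genes and those past the threshold of 25% higher or 20% lower, or near it, and up to 4 genes of each other list were named by largest absolute log2 ratio. The genes, lists and thresholds were chosen with earlier results of these data known.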

Additional observations from a re-analysis of the deposited data

How the results depend on the processing

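The median log2 ratio of the genes stayed above 0 under every alternative run, from 0.06 (mean of 5 RPKM or more) to 0.11 (same decile of gene length). No gene was at least 20% lower under any. TMM factors, DESeq2 size factors and division by the median ratio of all genes gave 7 higher genes each. The count of genes at least 25% higher depended on low genes and on the threshold. It was 3 among 31 genes with a mean of 5 RPKM or more, a filter that leaves out Cdc6, Tyms, Ung and Cdc45. On log2(RPKM + 1), which understates differences of low genes, it was 4. For these counts the share of all genes under the same setting is not given here, so they are not set against it. At 1.5-fold it was 2, beside 6.23% of all genes tested. Without the 12 genes that may share reads, intervals lay above 1 for 14 of 31 genes and below 1 for 3. Over all genes tested, with no such genes removed, the shares were 28.0% and 28.4%. For single genes, a changed level filter cannot move a ratio, and the other scalings shifted all genes alike, by a log2 scale of -0.004 at most. Only the pseudocounts and the length and GC deciles could move single genes. On log2(RPKM + 1), 43 genes stayed within their counting interval and Brip1, at a log2 ratio of 0.34, did not. Against genes of the same GC decile, 43 stayed within it and Nasp, at -0.05, did not. Its own log2 ratio was 0.02, and the median of its GC decile, which was subtracted, was 0.07. Nasp had the most reads of the 44 genes, 16881 over both libraries. All 44 stayed within it on log2(RPKM + 0.1) and against the same decile of gene length. Intervals were not recomputed with a pseudocount, which has no exact form. No paired analysis was possible because each group has 1 library. Depth limits the genes under about 2 RPKM, such as Dscc1, Exo1 and Cdc6, whose intervals span more than 25%. Cdc6, at a mean of 1.955 RPKM, is 1 of the 2 genes past 1.5-fold. Its log2 ratio was 0.75, and 0.49 on log2(RPKM + 1).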
